A study of Mus musculus with 672 samples.

Results

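Stathmins, collapsin response mediator proteins (CRMPs), the neuronal tubulin Tubb3 and the adhesion molecule Ncam1 are genes of the growing neuronal cytoskeleton, and 7 of them, Stmn2, Stmn3, Crmp1, Dpysl2, Dpysl3, Tubb3 and Ncam1, were followed here through the reprogramming of female mouse embryonic fibroblasts (MEFs) to induced pluripotent stem cells (iPSCs). The 7 genes were chosen by name out of 26127 genes in the table, because the levels of Stmn2 and Crmp1 in these same cells had marked a part of the day 8 to day 10 intermediates. Their levels are therefore given as a description, with no test. All 7 genes had a row in the table, and all 7 had reads in at least 1 cell of every group, except Stmn3 at day 0.

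The cells came from crosses of Musculus (Mus) females that carried a GFP reporter on the X chromosome with Castaneus (Cast) males. Passage 1 MEFs were transduced with lentiviruses for doxycycline-inducible Oct4, Sox2, Klf4 and Myc and for the transactivator, and were sorted by GFP into cells with an inactive Mus X (Xi-Mus) or an inactive Cast X (Xi-Cast). The intermediates were kept in doxycycline and ascorbic acid and were sorted as FUT4+ (the surface marker also called SSEA1), while iPSCs came from picked colonies after both were withdrawn. Full-length cDNA of single cells was made by Smart-seq2. The 7 groups were day 0 Xi-Mus MEFs (86 cells in the table), FUT4+ Xi-Mus intermediates of day 8 (82 cells), day 9 (83), day 10 (80) and day 12 (80), FUT4+ Xi-Cast intermediates of day 12 (66) and Xi-Mus iPSCs (90). All groups derived from transduced hybrid MEFs, the intermediates leave out cells of the culture that lacked FUT4, and the transgene and endogenous copies of the factors were not told apart.

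Stathmins bind tubulin dimers and promote the shrinkage of microtubules, and Stmn2 is their neuronal growth cone form. CRMPs bind tubulin in the cytosol and carry signals of the repulsive guidance cue semaphorin 3A to the cytoskeleton of the growth cone. Among these genes, Stmn2 is kept low in most non-neuronal cells, in part by the repressor REST, which binds RE1 sites. Stmn2 is a classic target of REST.

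RefSeq start site sequences of GRCm38.p6 (250 bases before to 50 bases after the start) are shown for 3 of the 7 genes, Crmp1, Tubb3 and Stmn3. Windows of the other members were not examined. Among these were Stmn2 and Dpysl3, which also varied with Crmp1 over cells. The 3 windows therefore give no contrast between genes that varied together and genes that did not. Both strands were searched for 6 motifs, and capitals mark the matches. The GC box was searched as GGGCGG, the E-box of helix-loop-helix factors as CANNTG and the left arm of the RE1 site as TCAGCACC. The AP-1 site was searched as TGANTCA, the TATA box as TATAAA and the octamer of POU factors as ATGCAAAT.
Crmp1, chr5:37241808-37242107, plus strand: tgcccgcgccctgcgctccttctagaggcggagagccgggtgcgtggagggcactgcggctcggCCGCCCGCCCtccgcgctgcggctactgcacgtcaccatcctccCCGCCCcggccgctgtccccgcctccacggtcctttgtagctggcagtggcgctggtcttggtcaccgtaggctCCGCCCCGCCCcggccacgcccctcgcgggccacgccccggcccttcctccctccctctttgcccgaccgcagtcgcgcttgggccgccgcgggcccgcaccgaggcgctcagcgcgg
Tubb3, chr8:123411303-123411602, plus strand: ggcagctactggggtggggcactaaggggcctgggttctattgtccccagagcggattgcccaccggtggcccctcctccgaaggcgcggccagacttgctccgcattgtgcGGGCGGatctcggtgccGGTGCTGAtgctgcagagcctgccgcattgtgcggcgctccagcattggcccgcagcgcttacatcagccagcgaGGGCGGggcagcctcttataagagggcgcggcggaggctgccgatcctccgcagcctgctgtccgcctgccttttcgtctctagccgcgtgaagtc
Stmn3, chr2:181314451-181314750, minus strand: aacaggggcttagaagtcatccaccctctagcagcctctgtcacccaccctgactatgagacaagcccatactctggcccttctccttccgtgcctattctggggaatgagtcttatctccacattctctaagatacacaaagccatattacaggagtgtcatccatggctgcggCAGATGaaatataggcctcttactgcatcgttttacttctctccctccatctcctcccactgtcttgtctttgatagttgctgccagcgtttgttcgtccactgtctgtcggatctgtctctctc
The Crmp1 window held 41 CpG dinucleotides and 5 GC boxes, some of which overlap each other. The Tubb3 window held 26 CpG, 2 GC boxes and 1 RE1 left arm. The Stmn3 window held 6 CpG and 1 E-box. Over 32851 promoters of the same length, the median was 7 CpG (quartiles 3 and 20), and 35.66% held a GC box, 1.65% an RE1 left arm, 72.31% an E-box, 7.808% an AP-1 match, 13.62% a TATA box and 1.735% an octamer. A second RefSeq start of Crmp1, at chr5:37245514-37245813, held 20 CpG, 2 GC boxes and 1 E-box. These are letter matches and describe the windows only.

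On the mouse build GRCm38, Stmn2 lies at chr3:8509360-8561606 on the plus strand, Stmn3 at chr2:181306459-181314500 on the minus strand and Crmp1 at chr5:37241940-37292133 on the plus strand. Dpysl2 lies at chr14:66802864-66868688 on the minus strand, Dpysl3 at chr18:43320984-43438286 on the minus strand, Tubb3 at chr8:123411424-123422015 on the plus strand and Ncam1 at chr9:49502136-49798925 on the minus strand. All 7 are autosomal protein-coding genes. The libraries did not mark strand, and an exon of Ncam1 overlaps the antisense gene Gm11149, so the Ncam1 values are uncertain to that extent. The genes Evc and Gm20388 overlap Crmp1 and Tubb3 but share no exon with them.

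Each group of labelled cells, called a plate here, had no named culture or animal, so it counts as 1 sample and no comparison has a replicate check. Gene-assigned reads per cell ranged from 15053 to 2098345 over the 567 cells, with plate medians from 505799 to 726843. All levels below are reads per 100000 gene-assigned reads of a cell. The sample titles carry 1 prefix for days 0, 8, 9 and 10 and another for day 12 and the iPSCs. What the prefix marks is not given in the sources used here, and a difference between plates of unlike prefix cannot be told apart from it. As a spread within a plate, the mean is given for the wells of the first 4 and of the last 4 row indexes in alphabetical order of the index sequence. These sets of wells are called first and last plate blocks. The alphabetical order is not that of the rows on the plate, so a block need not hold neighbouring rows. Outside day 0, 5 cells stood apart with summed fibroblast or blood markers of at least 1000, and no count of members that differed 2-fold changed without them.

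**Figure D1:**
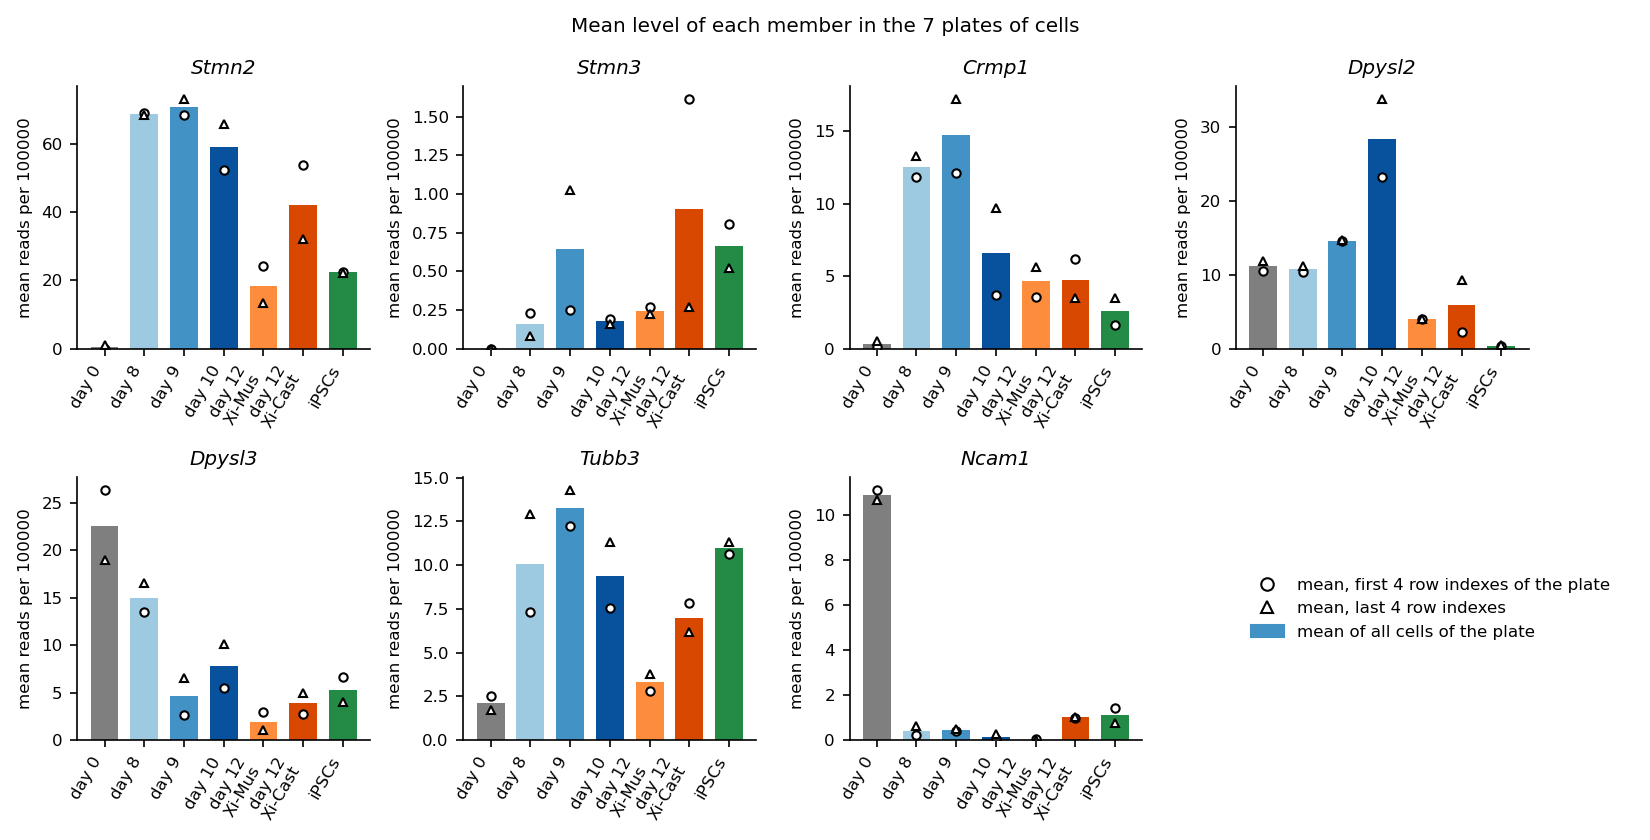
Mean level of each of the 7 genes (y axis, reads per 100000, linear scale from 0) in the 7 plates (x axis). Bars are means of all cells of a plate, circles and triangles the means of the wells with the first 4 and the last 4 row indexes in alphabetical order. Stmn2 stood at 68.8, 70.9 and 58.9 at days 8, 9 and 10 against 0.594 at day 0, whereas Ncam1 was highest at day 0 (10.9).

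Stmn2 was nearly absent from MEFs and present in almost every day 8 cell. At day 0, 3 of 86 cells had reads of it (3.49%, exact binomial interval 0.725% to 9.86%), with levels of 24.1, 23.8 and 3.15. At day 8, 79 of 82 cells had reads (96.3%, interval 89.7% to 99.2%), with a lowest level of 0, a median of 65.96 and a highest of 173. The shift therefore covered nearly the whole FUT4+ plate and was not confined to a few cells.

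The median was lower in each later Xi-Mus plate of intermediates, and cells without a read were more numerous. At day 9 the lowest, median and highest levels of Stmn2 were 0, 60.7 and 329, and 74 of 83 cells had reads. At day 10 they were 0, 40.4 and 207, with reads in 70 of 80 cells. At day 12 Xi-Mus they were 0, 4.77 and 174, with reads in 47 of 80 cells. Stmn2 thus had a low median at day 12 Xi-Mus, while its highest cell reached the level of the highest day 8 cell (173) and its second highest stood at 138. In Xi-Cast cells of day 12 the lowest, median and highest were 0, 34.3 and 152 (57 of 66 cells with reads), and in iPSCs 0, 18.8 and 79.2 (87 of 90 cells with reads).

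Sorted by level, cells with at least 100 reads of Stmn2 per 100000 numbered 23 at day 8, 23 at day 9 and 20 at day 10. There were 2 such cells at day 12 Xi-Mus, 6 at day 12 Xi-Cast and 0 among 86 MEFs and 90 iPSCs. Cells with no read numbered 3, 9 and 10 at days 8, 9 and 10 and 33 at day 12 Xi-Mus. The iPSCs differed from the day 12 Xi-Mus cells in shape more than in mean: 62 of 90 iPSCs lay between 10 and 100, against 28 of 80 day 12 cells, while the means were 22.3 and 18.4.

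Stmn3, the other stathmin, was close to the detection limit throughout. None of 86 MEFs had a read, which by the limit of 3 cells allows reads in up to 3.49% of cells (4.199% by the exact interval) and sets no limit on cells that express the gene. Its mean was 0.159, 0.642 and 0.176 at days 8, 9 and 10, 0.245 at day 12 Xi-Mus, 0.902 at day 12 Xi-Cast and 0.662 in iPSCs. The share of cells with reads lay between 4.88% and 7.23% at days 8 to 10 and was 21.1% in iPSCs (interval 13.2% to 30.99%), and its highest cell anywhere stood at 20.9, at day 9. Stmn3 never reached the mean of 1 set for a comparison.

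Of the CRMPs, Crmp1 had nearly the same order of plates as Stmn2. At day 0, 6 of 86 MEFs had reads, with a median of 0 and a highest level of 9.97. At day 8 the lowest, median and highest were 0, 8.62 and 66.3 (51 of 82 cells with reads), and at day 9 they were 0, 8.91 and 69.7 (53 of 83). Most cells of these plates thus carried Crmp1, but over 1 in 3 did not show a read.

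At day 10 the median of Crmp1 was 0, the highest level 83.8 and 29 of 80 cells had reads. At day 12 the medians were 0 in both lines, with 20 of 80 Xi-Mus cells and 26 of 66 Xi-Cast cells positive and highest levels of 58.1 and 29.9. In iPSCs 32 of 90 cells had reads and the highest stood at 17.7. Among cells with reads, the median level of Crmp1 was 17.7 at day 8, 19.6 at day 9, 11.7 at day 10 and 11.8 at day 12 Xi-Mus, so the lower mean of the later plates went with fewer positive cells and with lower levels in them.

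Dpysl2, or CRMP2, which promotes microtubule assembly in neurons, behaved differently from Crmp1. It was already present in MEFs, where 81 of 86 cells had reads and the lowest, median and highest levels were 0, 9.29 and 50.3. At day 8 they were 0, 7.30 and 45.6 and at day 9 0, 11.7 and 53.9. At day 10 they were 0, 19.2 and 109, with reads in 77 of 80 cells, and the mean of 28.5 was the highest of the 7 plates (block means 23.3 and 33.9). Dpysl2 then stood at a median of 0.178 at day 12 Xi-Mus (43 of 80 cells with reads) and 1.25 at day 12 Xi-Cast (40 of 66), and 16 of 90 iPSCs had reads with a highest level of 4.88.

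Dpysl3, or CRMP4, was highest in MEFs. There 77 of 86 cells had reads, with a lowest, median and highest level of 0, 20.4 and 74.7. At day 8 the values were 0, 5.79 and 99.2 (48 of 82 cells with reads). Cells without a read were thus common by day 8, while the highest cell of that plate lay above every MEF. At day 9 the median was 0 and the highest 53.3 (40 of 83 cells), and at day 10 0 and 70.0 (27 of 80 cells). Day 12 Xi-Mus held 20 positive cells of 80, day 12 Xi-Cast 27 of 66 and iPSCs 47 of 90, with highest levels of 38.7, 30.9 and 29.3.

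Tubb3, the class III beta-tubulin used as a marker of young neurons, was present in a minority of MEFs (18 of 86, highest level 39.1). At day 8 it had reads in 40 of 82 cells, at day 9 in 44 of 83 and at day 10 in 32 of 80. The medians of these plates were 0, 0.327 and 0 and the highest levels 102, 104 and 134. Its intermediates were therefore a mixture of cells without reads and cells with levels of up to 134. In iPSCs most cells had reads (75 of 90), with a median of 8.93 and a highest level of 95.3 beside a second highest of 38.6. The 2 day 12 plates lay lower, with reads in 22 of 80 Xi-Mus and 25 of 66 Xi-Cast cells, medians of 0 and highest levels of 61.8 and 71.3.

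Ncam1, an immunoglobulin-family adhesion molecule of neurons, muscle and mesenchyme, was a MEF gene in these data. It had reads in 64 of 86 MEFs, with a lowest, median and highest level of 0, 6.42 and 57.2. At days 8, 9 and 10 it had reads in 9 of 82, 14 of 83 and 6 of 80 cells, and its highest levels were 9.66, 8.11 and 6.55. At day 12 Xi-Mus 5 of 80 cells had reads and none exceeded 0.449. The day 12 Xi-Cast plate held 12 positive cells of 66 and iPSCs 29 of 90, with highest levels of 28.7 and 13.7. In the day 8 and the Xi-Cast plates the highest Ncam1 cell was the cell that carried the fibroblast markers, which also had Dpysl3 (27.9 and 30.9) and almost no Stmn2 (0.557 and 0).

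**Figure D2:**
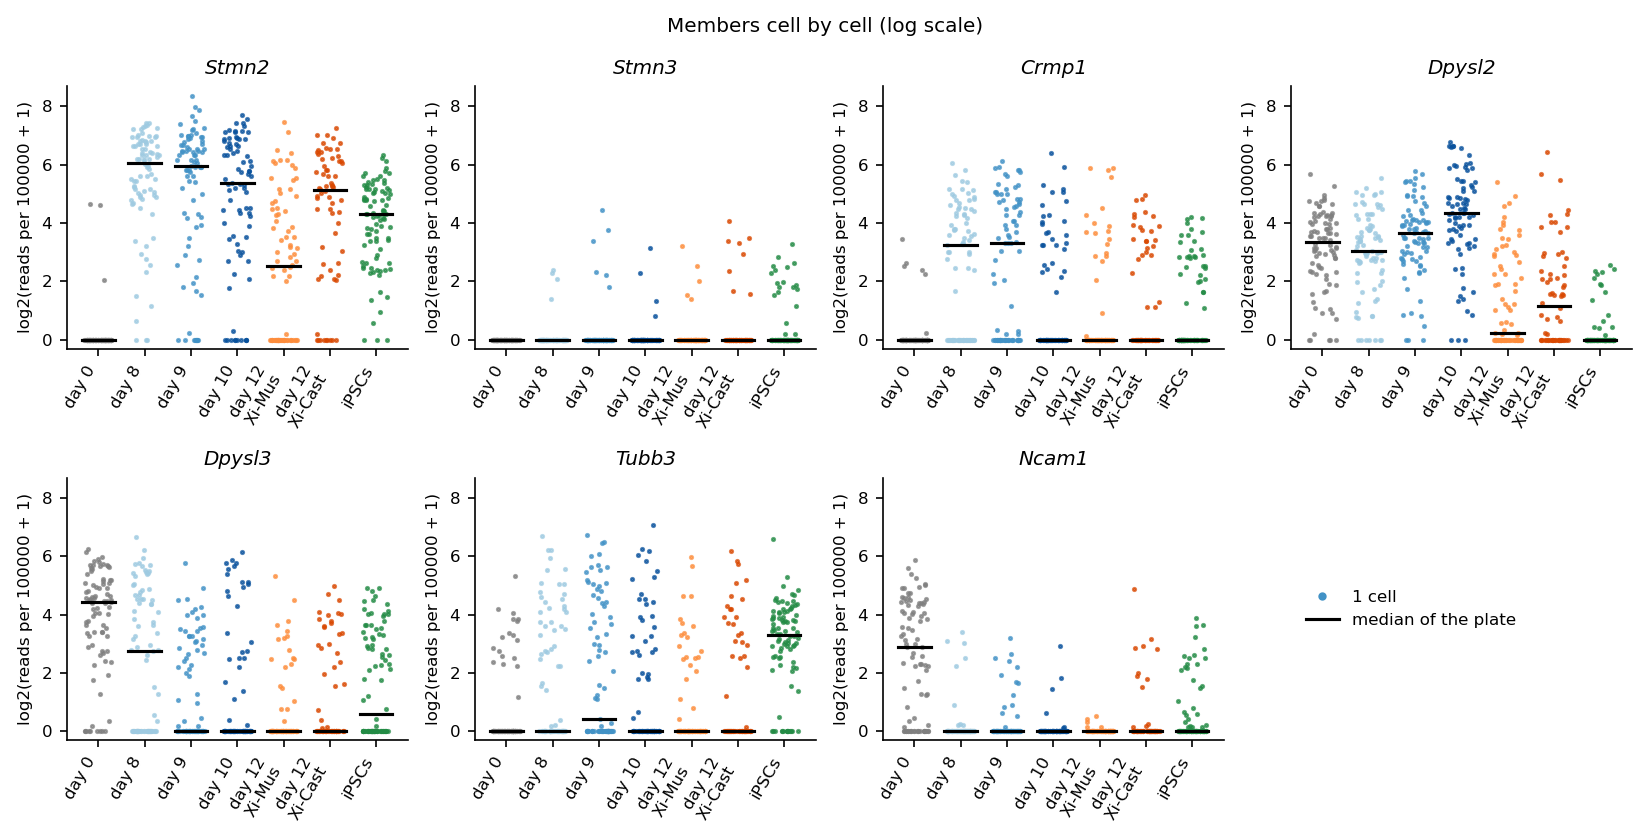
Level of each gene in every cell (y axis, log2 of reads per 100000 plus 1) by plate (x axis). Each point is 1 cell, spread sideways at random, and black lines are plate medians. The Stmn2 medians lay at 65.96, 60.7 and 40.4 reads per 100000 at days 8, 9 and 10 and the Tubb3 medians at 0, 0.327 and 0, with cells of all plates overlapping.

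To set genes side by side, levels were divided by the joint length of all annotated exons of a gene (5602 bases for Stmn2, 1868 for Tubb3). A single transcript can be shorter than this, so the order of genes holds for this length only. Per kilobase of it, the mean level of Stmn2 was 12.3 reads per 100000 at day 8. Tubb3 followed at 5.39, Dpysl2 at 2.39, Dpysl3 at 2.27, Crmp1 at 1.78, Stmn3 at 0.140 and Ncam1 at 0.048. In MEFs the order on the same scale was Dpysl3 (3.41), Dpysl2 (2.47), Ncam1 (1.26), Tubb3 (1.12), Stmn2 (0.106), Crmp1 (0.046) and Stmn3 (0). In iPSCs Tubb3 led with 5.89, ahead of Stmn2 at 3.98, and Dpysl2 stood at 0.089. By this length the leading member differed between MEFs, intermediates and iPSCs. Lengths of single transcripts were not tried.

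The order of plates was clear for some genes only. For Stmn2, the block means of day 9 (68.5 and 73.3) and day 8 (69.03 and 68.6) overlapped, day 10 lay below (52.3 and 65.9), the day 12 Xi-Cast blocks (53.7 and 31.98) overlapped with day 10, and iPSCs (22.5 and 22.1) overlapped with day 12 Xi-Mus (24.1 and 13.2). For Crmp1, days 9 and 8 overlapped, day 10 and both day 12 plates overlapped below them, iPSCs (1.65 and 3.52) reached the lower edge of those plates, and day 0 lay lower. For Dpysl2, day 10 and then day 9 stood above the overlapping days 0 and 8, followed by the overlapping day 12 plates and by iPSCs. For Tubb3, day 9 lay above iPSCs but overlapped with day 8, the blocks of iPSCs, day 8, day 10 and the Xi-Cast plate overlapped from neighbour to neighbour, and day 12 Xi-Mus and then day 0 lay below them. For Dpysl3, day 0 and then day 8 stood apart, whereas the 5 other plates overlapped from neighbour to neighbour. For Ncam1, day 0 stood apart at 11.1 and 10.7, all other blocks lying at or below 1.43.

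To compare plates, the log2 ratio of plate means was taken with a pseudocount of 1, which understates the ratios of low genes, and a gene counted as measured when the higher mean was at least 1. Against day 0, 3 of the 6 measured members were at least 2-fold higher at day 8 and 1 was at least 2-fold lower, where 21.1% of 10201 measured genes were higher and 15.4% lower to that degree. Stmn2 (log2 ratio 5.45), Crmp1 (3.35) and Tubb3 (1.84) were the higher genes and Ncam1 (−3.07) the lower, with Dpysl3 at −0.56 and Dpysl2 at −0.05 beside a median of 0.24 over all measured genes. Scaling by median ratios moved that median by −0.29 and changed no direction among the members. The members were chosen with these levels known, and the count is read no further.

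The steps between the intermediates of days 8, 9 and 10 were small for most of the genes. From day 8 to day 9, 0 of 5 measured members were at least 2-fold higher and 1 was lower, where 1.07% and 0.827% of 9426 genes were. That gene was Dpysl3, with a log2 ratio of −1.51 from means of 15.0 to 4.60. From day 9 to day 10, 0 of 5 were higher and 1 lower, Crmp1 at −1.04 from means of 14.7 to 6.63, where 1.82% and 0.423% of 9692 genes were. This last call lay at the limit: the ratio was −0.77 to −1.49 over the settings tried. Dpysl2 was the member with the largest positive ratio in that step (0.91), while Stmn2 stood at −0.26 and Tubb3 at −0.46.

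At day 12 the Xi-Mus intermediates carried less of most members than those of day 10. None of 5 measured members was at least 2-fold higher and 4 were lower, where 3.36% and 3% of 10033 genes were. The ratios were −2.56 for Dpysl2, −1.63 for Stmn2, −1.59 for Dpysl3 and −1.26 for Tubb3. Dpysl3 stood at −0.73 in the first plate blocks and −0.62 as a difference of mean log2 values, and Tubb3 at −0.66 by the latter, so that both calls were lost there. Crmp1 lay within 2-fold, at −0.43 (6.63 and 4.64), while its step from day 9 to day 10 had been −1.04. The title prefix also changes with this step, so the day cannot be told apart from what the prefix marks.

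The iPSCs share the title prefix of the day 12 Xi-Mus intermediates, with which they were compared. Of 6 measured members 3 were at least 2-fold higher, Tubb3 (1.47), Dpysl3 (1.12) and Ncam1 (1.05), and 1 was lower, Dpysl2 (−1.83), where 3.83% and 14.7% of 9946 genes were. Stmn2 lay at 0.27 (−0.09 in the first plate blocks) and Crmp1 at −0.65 (0.10 as a difference of mean log2 values). Dpysl3 was within 2-fold in the first plate blocks (0.96) and as a difference of mean log2 values (0.97). Ncam1, which rests on 12 reads in 5 cells at day 12, was within 2-fold by that difference (0.52), in the last plate blocks (0.83) and without its highest cell (0.96). Against day 0, iPSCs had 3 of 6 measured members at least 2-fold higher (Stmn2 3.87, Tubb3 1.95, Crmp1 1.43) and 3 lower (Dpysl2 −3.12, Ncam1 −2.50, Dpysl3 −1.89), where 23.1% and 21.2% of 10106 genes were. Crmp1 stood at 0.85 as a difference of mean log2 values, which ends its call. These 2 plates have unlike title prefixes.

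Day 12 intermediates of the 2 starting lines share their title prefix. Stmn2 was the 1 member at least 2-fold higher in Xi-Cast than in Xi-Mus cells, where 0.691% of 9841 genes were, and 0 members were lower, where 2.31% were. The means of Stmn2 were 42.2 and 18.4 (log2 ratio 1.16), the Xi-Cast blocks of 53.7 and 31.98 lay above the Xi-Mus blocks of 24.1 and 13.2, and the ratio stayed between 1.10 and 1.85 over the settings tried. Tubb3 (0.88), Ncam1 (0.98), Dpysl3 (0.76), Dpysl2 (0.48) and Crmp1 (0.03) lay within 2-fold. Ncam1 stood at 0.64 without the cells that stood apart. In the first plate blocks alone Dpysl2 (−0.64) and Dpysl3 (−0.05) had the other sign, as did Crmp1 (−0.56) in the last blocks and (−0.01) under scaling by median ratios. In the Xi-Mus plate Stmn2 moved with reads per cell (rho 0.44, against −0.01 in the Xi-Cast plate), and its median depth was 667368 reads against 726843. The part of depth in the difference was not tested.

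To describe how the members varied together, Spearman's rho was taken over the cells of each plate. It is a description: the cells of a plate share its depth and source, and no p is given. Stmn2 and Crmp1 were chosen because their levels marked a part of the day 8 to day 10 cells. Their values in those plates therefore come with the choice and are no separate finding. No background of other gene pairs is given. Stmn2 and Crmp1 were correlated in all 5 intermediate plates, at 0.45, 0.65 and 0.55 at days 8, 9 and 10, 0.49 at day 12 Xi-Mus and 0.51 at day 12 Xi-Cast. Crmp1 and Tubb3 stood at 0.46, 0.65 and 0.45 at days 8, 9 and 10, and Crmp1 and Dpysl3 at 0.44, 0.48 and 0.53. Stmn2 and Dpysl3 gave 0.40, 0.44 and 0.49. In MEFs the Stmn2 and Crmp1 value was −0.05, with 3 and 6 positive cells, and in iPSCs it was 0.14.

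The other pairs at days 8 to 10 were weaker. Stmn2 with Tubb3 averaged 0.26 and Dpysl3 with Tubb3 0.25. Dpysl2 gave averages of 0.15 with Stmn2, 0.15 with Dpysl3, 0.09 with Crmp1 and 0.06 with Tubb3, and every pair with the sparse genes Stmn3 or Ncam1 averaged between −0.06 and 0.11. At days 8 to 10 the 4 genes that varied together were thus Stmn2, Crmp1, Dpysl3 and Tubb3. At day 12 Xi-Mus Dpysl2 moved with them as well, at 0.35 with Stmn2, 0.36 with Crmp1, 0.44 with Dpysl3 and 0.27 with Tubb3. The Xi-Cast plate of day 12 kept the Stmn2 and Crmp1 value, but Crmp1 with Tubb3 was 0.05 there, Crmp1 with Dpysl3 −0.12 and Stmn2 with Tubb3 −0.04.

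**Figure D3:**
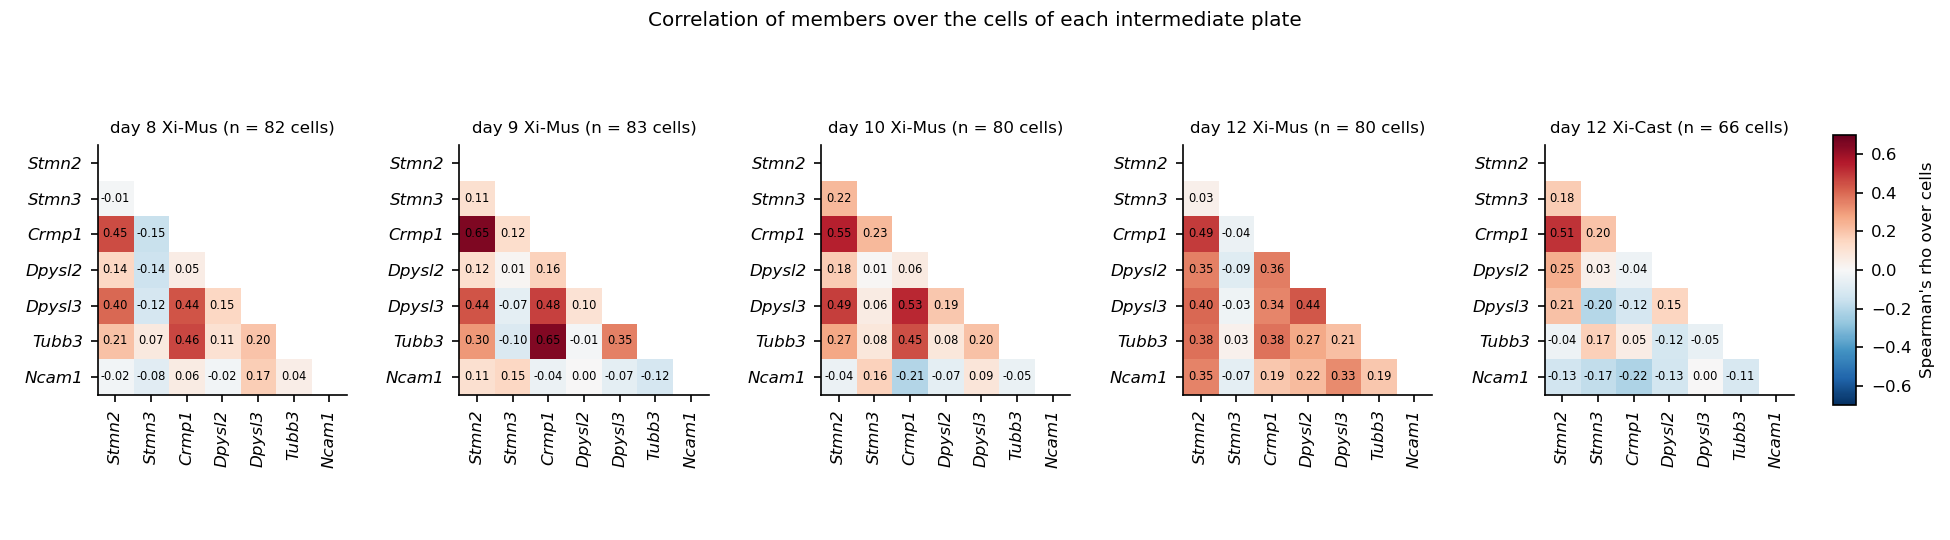
Spearman's rho of each pair of the 7 genes over the cells of the 5 intermediate plates (colour scale, with the value in each square). In the panels of days 8, 9 and 10 the squares of Stmn2, Crmp1, Dpysl3 and Tubb3 are red (0.20 to 0.65), and those of Stmn3 and Ncam1 lie between −0.21 and 0.23.

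The number of genes detected in a cell moved with Tubb3 more than with Stmn2 at days 9 and 10. The rho of Tubb3 with it was 0.56 at day 9, 0.37 at day 10 and 0.02 at day 8, whereas Stmn2 gave 0.10, 0.14 and 0.03. After thinning every cell to 100000 reads, Stmn2 and Crmp1 gave 0.44, 0.69 and 0.53 at days 8, 9 and 10, and Crmp1 and Tubb3 0.49, 0.63 and 0.48. Thinning matches the reads and not the number of genes detected, with which Crmp1 had a rho of 0.32 at day 9, and the part of that number was not tested.

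When the cells of a plate were ranked by Stmn2 and cut into terciles, the co-variation showed as levels. At day 9 the lowest tercile (28 cells, Stmn2 up to 30.9) held a mean Crmp1 level of 0.552 and the highest (27 cells, Stmn2 from 91.04) a mean of 27.2. Reads of Crmp1 were found in 21.4% and 88.9% of these cells. Median depth was 514391 and 507682 reads in the 2 terciles.

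Day 8 and day 10 had the same direction, with median depths of 421453 and 524318 reads in the lowest and highest terciles of day 8 and 498978 and 516773 in those of day 10. Crmp1 stood at 6.10 and 17.5 in the lowest and highest Stmn2 terciles of day 8 and at 0.771 and 14.2 in those of day 10. Dpysl3 stood at 5.61 and 24.2 at day 8, 1.28 and 8.43 at day 9 and 0.235 and 14.9 at day 10. Tubb3 was highest in the middle tercile on all 3 days, at 13.3, 21.05 and 15.3, against 5.57, 1.18 and 2.73 in the lowest. Dpysl2 showed no such order, with 25.6, 36.2 and 23.3 from the lowest to the highest tercile at day 10.

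Cells with all 4 co-varying genes at 10 or more were a minority. They numbered 12 of 82 at day 8, 7 of 83 at day 9, 3 of 80 at day 10, 2 of 80 at day 12 Xi-Mus and 0 in MEFs, Xi-Cast cells and iPSCs. Cells with none of the 4 at that level numbered 8, 18 and 18 at days 8, 9 and 10. No cell of any plate had reads of all 7 members, and the highest number was 6.

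**Figure D4:**
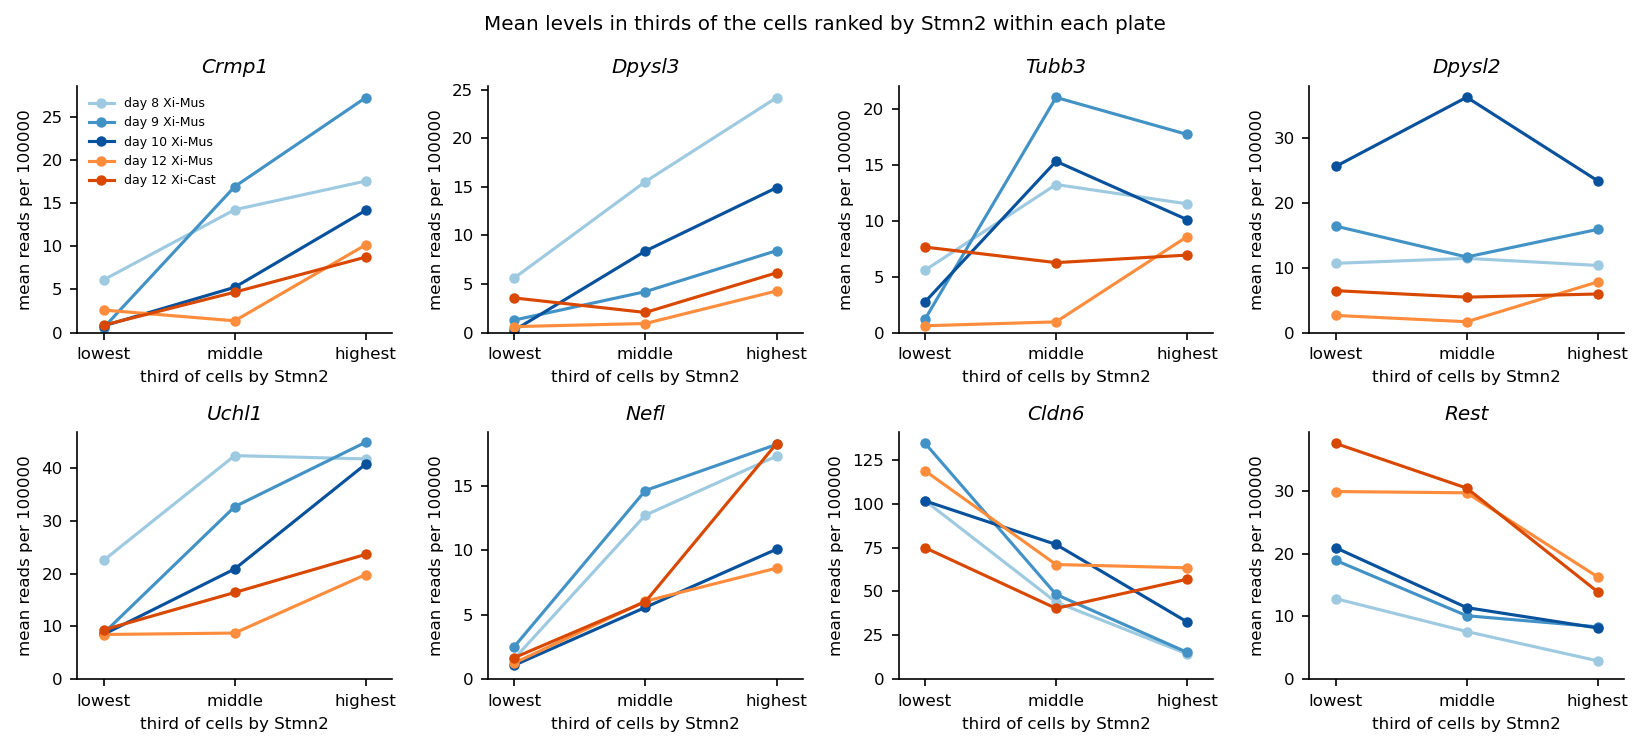
Mean level (y axis, reads per 100000, linear from 0) of 4 members and 4 other genes in the lowest, middle and highest tercile of cells ranked by Stmn2 (x axis), with 1 line for each of the 5 intermediate plates. Crmp1 runs from 0.552 to 27.2 at day 9, while Cldn6 runs from 135 to 15.2 and Rest from 18.96 to 8.34 in the same cells.

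Whether the cells were neuronal was checked against 16 defining neuronal genes, of which 13 were analysed here. At days 8, 9 and 10, 4 of the 13 had a mean of at least 1: the axonal microtubule protein Mapt (9.31, 8.36 and 9.45), the light neurofilament Nefl (10.4, 11.7 and 5.52), the dendritic Map2 (3.46, 4.52 and 3.59) and the autonomic factor Phox2a (1.61, 1.31 and 1.35). Of these Map2 stood at 3.91 in MEFs too. Neurod1 had no read in any of the 3 plates, Gap43 had none at days 8 and 9 and a mean of 0.0493 at day 10, and Snap25, Syp and Elavl3 had means of at most 0.0931.

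A day 8 cell had reads of 3 of the 13 genes at the median (lowest 0, highest 5), and the summed level ranged from 0 to 74.7 with a median of 20.2, against a range of 0 to 30.7 in MEFs. At day 9 and day 10 the summed level ranged from 0 to 99.7 and from 0 to 73.03. At day 9 the synaptic gene Syt1 had reads in 13 of 83 cells (mean 0.457) and the neuronal RNA-binding gene Elavl4 in 14 of 83 (mean 0.617), against 4 and 2 of 86 MEFs. Cells with reads of 5 or more of the 13 genes numbered 5 of 82 at day 8, 18 of 83 at day 9 (highest 7), 4 of 80 at day 10 and 0 of 86 MEFs. They numbered 4 of 80 at day 12 Xi-Mus, 4 of 66 at day 12 Xi-Cast (highest 7) and 3 of 90 iPSCs. Mapt and Nefl had reads in 70% and 65.6% of iPSCs. Day 9 had the most genes detected per cell of the intermediate plates (median 7390, against 6478 at day 8 and 6994 at day 10). The part of that number was not tested. The name neuronal cytoskeleton genes is used here for the genes, and no cell type is given to the cells. In the highest Stmn2 tercile of day 8 Nefl stood at 17.3 (1.58 in the lowest) and Mapt at 10.1 (8.50).

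Among 19 related stathmin, tubulin, CRMP and adhesion genes in the table, 13 were measured between day 8 and day 0. Of these, 4 lay at least 2-fold above day 0 and 2 below, beside 21.1% and 15.4% of all measured genes, and the median ratio was 0.60 beside 0.24 over all genes. Dpysl5, the fifth CRMP, had no read in MEFs and means of 6.84, 5.38 and 4.34 at days 8, 9 and 10. The alpha-tubulin Tuba4a stood at 6.78 in MEFs and 59.04, 64.95 and 51.7 at those days, and the beta-tubulin Tubb4a at 0.108 and 4.93, 3.64 and 6.15. Tubb6 (116 and 28.8) and Tuba1a (56.5 and 17.1) were the lower genes at day 8. The widely expressed Tubb5 stood at 250 in MEFs and 160 at day 8. From day 10 to day 12 Xi-Mus 1 of 12 measured related genes was 2-fold lower, and none was higher, beside 3% and 3.36% of all genes.

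Of 22 partners of CRMP and NCAM signalling, 16 were measured between day 8 and day 0. Of these, 1 lay at least 2-fold above day 0 and 7 below, beside 21.1% and 15.4% of all genes, with a median ratio of −0.91. The semaphorin 3A receptor Nrp1 had a mean of 12.6 in MEFs and 0 at day 8, and the ligand Sema3a 4.58 and 0, while Nrp2 stood at 5.36 and 7.89. The CRMP kinase Cdk5 stood at 6.68 and 3.09, and its neuronal activator Cdk5r1 at 0.0278 and 0.0293. The remaining 8 measured partners lay within 2-fold.

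Of 18 other neuronal microtubule and filament genes in the table, 11 were measured in that comparison, with 2 higher (Nefl and Mapt) and 6 lower (median −1.57), beside the same 21.1% and 15.4% of all genes, which also stand beside the counts of the lists that follow, among them Dclk1 (15.3 and 0.0416) and Marcks (16.5 and 1.64). Of 16 neuronal RNA-binding and vesicle genes 4 were measured, with 2 higher, Uchl1 (5.42 and 35.4) and Elavl2 (0.0455 and 1.19), and 0 lower. Of 14 neuronal transcription factors 4 were measured, with Phox2a and the proneural factor Neurog3 (0 in MEFs and 1.02 at day 8) higher and Sox4 and Hand2 lower. Of 7 neural progenitor and crest genes only Nes was measured, at 7.14 and 1.19.

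The repressor Rest itself was lower at days 8 to 10 than at day 12 and in iPSCs. Its mean was 10.7 in MEFs, 7.84, 12.5 and 13.6 at days 8, 9 and 10, 25.4 at day 12 Xi-Mus, 27.3 at day 12 Xi-Cast and 42.6 in iPSCs. Over cells, the tercile means of Rest ran against Stmn2. In the lowest and highest Stmn2 terciles Rest stood at 12.8 and 2.90 at day 8 and 18.96 and 8.34 at day 9. It stood at 20.98 and 8.15 at day 10, 29.9 and 16.3 at day 12 Xi-Mus and 37.6 and 13.9 at day 12 Xi-Cast. The average rho of Rest with Stmn2 at days 8 to 10 was −0.26. With the mean rank of the members it was −0.29 (−0.47 to −0.08 over the plates). By that value Rest ranked 2313 of 2401 genes, whose median was 0.08 and lowest value −0.57. Whether REST acted on Stmn2 in these cells was not tested. The median depth of the lowest and highest terciles was 576523 and 911430 reads at day 12 Xi-Mus, where cells without Stmn2 reads fall in both the lowest and the middle tercile, and the part of depth was not tested. In iPSCs both were present, since Stmn2 had reads in 96.7% of cells on a plate with the highest Rest mean. Of 10 REST repressor genes, Rest and its corepressors, 1 was at least 2-fold higher at day 8 than at day 0 (Sin3a, 2.79 and 9.79) and 0 were lower.

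Markers of other cell types were set beside the members within plates. All 12 epithelial markers had reads at days 8 to 10, with summed levels from 163 to 3504 at day 8, 187 to 3535 at day 9 and 0 to 5554 at day 10. Cells with the highest epithelial scores had the lowest Stmn2 mean: from the lowest to the highest epithelial tercile its mean ran 84.1, 83.9 and 39.5 at day 8, 101, 76.8 and 36.3 at day 9 and 81.8, 51.9 and 43.9 at day 10. The median depth of the outer terciles was 495562 and 525617 reads at day 8. At day 12 this order was not seen, with 7.01, 26.3 and 21.4 in Xi-Mus and 29.8, 47.3 and 49.4 in Xi-Cast cells. Single epithelial genes did not all run against Stmn2 at days 8 to 10. The average rho was −0.53 for Cldn6, −0.45 for Krt18, −0.36 for Cldn4, −0.33 for Cldn3 and −0.21 for Cdh1. It was −0.11 for Epcam, −0.02 for Cldn7, 0.01 for Krt8, 0.07 for Krt19 and 0.15 for Rab25. Sparser genes of the list have no such value.

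Pluripotency markers ran against Crmp1 and Tubb3. At day 8, Crmp1 stood at 21.5, 11.1 and 5.36 and Tubb3 at 19.4, 9.44 and 1.65 from the lowest to the highest pluripotency tercile. Terciles of a marker list rank cells by the mean log2(level + 1) of its genes. The summed level of the 12 pluripotency genes ranged from 0 to 1577 at day 8. At day 10 Tubb3 stood at 15.9, 11.6 and 0.820. Dpysl2 followed the same order most clearly at day 12 Xi-Mus, with 9.05, 2.88 and 0.239 (rho −0.64). In iPSCs, where all 12 pluripotency genes had reads (summed level 255 to 1827), Tubb3 and Stmn2 had positive values with the score (0.26 and 0.40).

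The blood and macrophage list, whose summed level was at most 66.8 at day 8, ran against Stmn2 (rho −0.38, −0.32 and −0.42 at days 8, 9 and 10). Of its 8 genes 2 had no read at day 8 and at day 9, and Cd68, a lysosomal gene that other cells express as well, had a mean of 10.7 at day 8. At day 10, 1 cell reached a sum of 2694, and that cell had a Dpysl2 level of 93.6 and a Stmn2 level of 3.20. Without it and the 4 other cells that stood apart, the calls of all 7 comparisons had the same counts. In MEFs, the fibroblast score ran with Dpysl3 (rho 0.54), Ncam1 (0.52) and Tubb3 (0.37). Proliferation markers gave values between −0.20 and 0.32 with Stmn2, Crmp1, Dpysl3 and Tubb3 at days 8 to 10. All 8 values at days 9 and 10 were positive (0.14 to 0.32), as were Stmn2 (0.09) and Dpysl3 (0.05) at day 8, while Crmp1 (−0.15) and Tubb3 (−0.20) were negative there. The part of proliferation in these values was not tested.

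To find the genes whose pattern was most like that of the 7, each of 2401 genes with a mean of at least 10 and reads in at least 50% of cells at days 8 to 10 was correlated over cells with the mean rank of the members, and rho was averaged over the 3 plates. The median over the 2401 genes was 0.08. Uchl1, a neuronal ubiquitin hydrolase, came first at 0.67 (0.65 to 0.69 over the plates). It was followed by the dynein heavy chain Dnah17 (0.64), the phosphatase Ptprv (0.61), the inositol synthase Isyna1 (0.60), the acyl-CoA hydrolase Acot7 (0.59), Arap1 (0.58), the cyclin Ccnd2 (0.57), the tyrosine catabolic enzyme Fah (0.56), Fam49a (0.55) and the ectonucleotidase Entpd1 (0.55).

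All 10 of these genes had a positive value at day 12 as well, from 0.25 to 0.66 in Xi-Mus and 0.29 to 0.56 in Xi-Cast cells. The share of the 2401 genes with a positive value at day 12 is not given, so this count is read no further. With Stmn2 alone, Fah led at days 8 to 10 (average 0.67, 0.79 at day 9). Fah stood at 7.30 in MEFs and 32.96 at day 8, Dnah17 at 0.0576 and 58.2, whereas Ccnd2 stood at 97.4 and 26.9. The like genes had to pass a filter on their level at days 8 to 10, which favours genes higher there than in MEFs. Their difference from MEFs is therefore read no further. Dnah17 had no read in iPSCs, whereas Uchl1 stood at 25.7 there, so the like genes parted in iPSCs.

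At the other end were the tight junction gene Cldn6 (−0.57), the annexin Anxa3 (−0.54), the actin-severing Gsn (−0.52), the matrix gene Sparc (−0.51), Renbp (−0.50), the heat shock gene Hspb1 (−0.50), the tetraspanin Cd63 (−0.49), Ubxn1 (−0.48), the nuclear RNA Malat1 (−0.48) and Ly6a (−0.48). Cldn6 stood at 102, 135 and 102 in the lowest Stmn2 terciles of days 8, 9 and 10 and at 14.4, 15.2 and 32.6 in the highest. At day 12 these genes had values of both signs, and no background of other genes is given there. Ly6a was at 0.16 in Xi-Mus and 0.39 in Xi-Cast cells, Anxa3 at 0.15 and 0.02 and Cldn6 at −0.18 and 0.01, whereas Hspb1 was at −0.33 and −0.32.

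**Figure D5:**
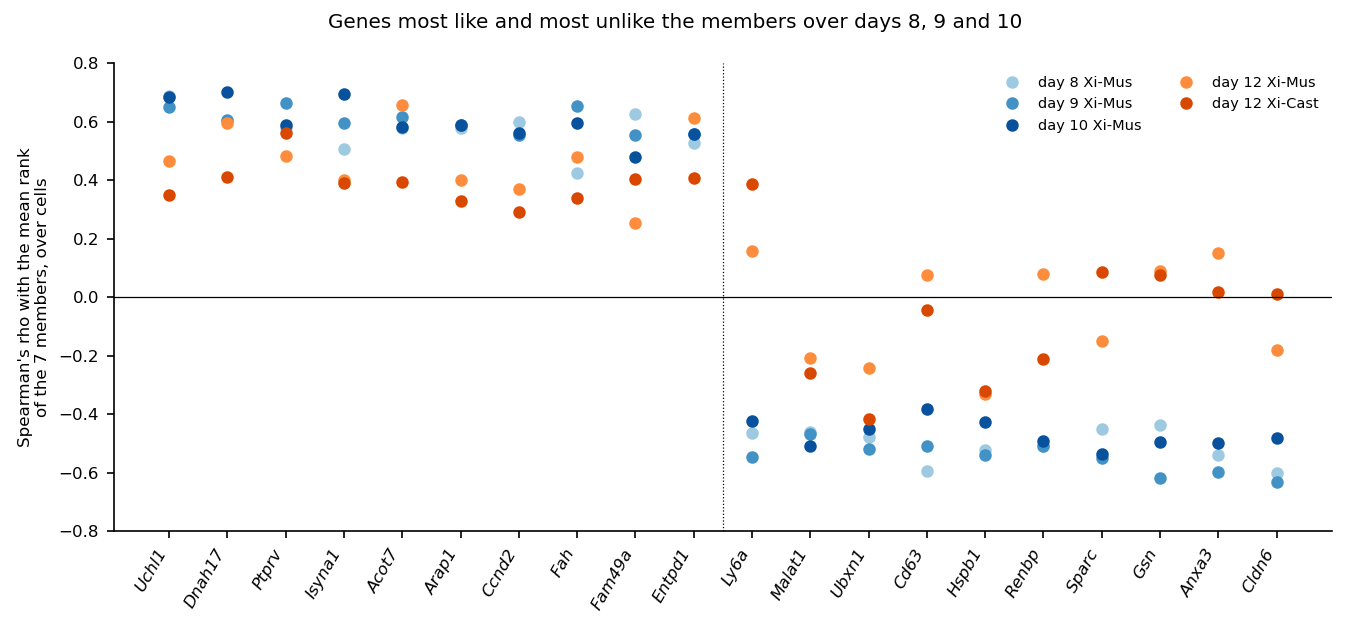
Spearman's rho over cells (y axis) between each of 20 genes (x axis) and the mean rank of the 7 members, with 1 point per intermediate plate. The 10 genes on the left lie above 0 in all 5 plates (Uchl1 0.65 to 0.69 at days 8 to 10), and the 10 on the right lie below 0 at days 8, 9 and 10 but on both sides of 0 at day 12 for several genes.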

How the data were processed

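Single cells were sequenced by Smart-seq2. Alignment by the authors used STAR 2.5.3a and the mouse build mm10, and featureCounts gave reads per gene, which they filtered, scaled and logged in Seurat. The deposited table holds natural log values of 1 + reads per 10000, although the methods state 100000: the antilog of each column minus 1 summed to 10000. The values were converted to linear reads per 100000, and 100% of 3980842 values above 0 gave whole reads (tolerance 0.01 reads or 1e-06 relative). Cells passed the stated limits of over 4000 and under 10000 genes and under 8% mitochondrial reads. The table held 567 of 672 labelled cells. Doublets were not called.

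Each of 7 groups of cells, named by the labels, was 1 plate and 1 sample, so no test was run. Plate means were compared as log2 ratios (pseudocount 1, measured at a mean of at least 1, called at 2-fold). Shares of cells have exact Clopper-Pearson 95% intervals, and a count of 0 was read as up to 3 cells. The reads carry no molecular identifiers, so these intervals cover counting error alone. Spearman's rho was taken within plates. Annotations came from GENCODE vM21. Python 3.11.15, NumPy 2.4.6, pandas 2.3.3, SciPy 1.17.1 and Matplotlib 3.10.9 were used, and the ratio and rank code was tested on simulated data.

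The 7 genes and all gene lists were chosen with earlier results of these data known. All 7 genes were named, and of each list the 3 with the highest and 3 with the lowest ratio, or in a count of 5 or fewer any gene after its values were seen, as were Dpysl5, Tuba4a, Nrp2, Cdk5, Cdk5r1, Tubb5 and the genes of the Stmn2 terciles. Like genes were the 10 highest and 10 lowest by average rho. Alternatives were another scaling, pseudocount, filter on the mean, depth or scale of averaging, single plate blocks, the highest cell left out and, chosen after seeing the data, 5 cells left out. The deposited cell annotation sheets were not used for values. Some genes of the lists are counted but not reported here by name.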

Additional observations from a re-analysis of the deposited data

How the results depend on the processing

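Under 9 other settings, and 1 chosen after seeing the data that left out the 5 cells that stood apart, no called ratio changed sign. The counts of members at least 2-fold higher or lower were within 1.5 times of those given, except as follows. From day 9 to day 10, the lower count of 1 was 0 under scaling by median ratios and in the last plate blocks, where the higher count was 1 (Dpysl2). Between Xi-Cast and Xi-Mus cells of day 12, the higher count of 1 was 3 with a pseudocount of 0.1, 3 in the first plate blocks and 4 in the last. Between iPSCs and day 12 the lower count of 1 was 0 with a mean of at least 5. With differences of mean log2 values, which weigh cells without reads more, the lower count was 2 between day 8 and day 0 (Dpysl3 and Ncam1) and 2 between day 12 Xi-Mus and day 10 (Stmn2 and Dpysl2). The causes were not tested.

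Leaving out the highest cell of each gene and plate, or cells under 100000 reads, changed 0 of 14 counts. The size of a ratio depended on the setting: between day 8 and day 0, Crmp1 ranged from 2.39 to 4.89 and Stmn2 from 5.03 to 6.63. Of 99 correlations over cells, 99 stayed within the Fisher interval for that number of cells when thinned to 100000 reads. The thinned reads are part of the same reads of the same cells, and the interval counts cells as independent. That check could hardly fail and is read no further. Thinning moved 1 of 49 shares of cells beyond its interval. Raising the limit from any read to 10 reads per 100000 moved 47 of 49 shares, so a share of cells with reads is tied to that limit. No paired analysis was possible because each group is 1 plate and its replicate numbers only name cells. Depth limits the sparse genes: at these plate sizes a gene without reads in any cell allows reads in up to 3.33% to 4.55% of cells by the limit of 3 cells, which sets no limit on cells that express it.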

Other observations

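Glial genes were looked at as well. Of 6 in the table, Gfap, the intermediate filament of astrocytes, stood at 0.0399 in MEFs, 7.33, 8.71 and 6.31 at days 8, 9 and 10, 5.04 and 1.90 at day 12 Xi-Mus and Xi-Cast, and 0.0830 in iPSCs, while S100b had a mean of at most 0.328 in every plate. The internexin Ina, a neuronal intermediate filament, was at 0, 0 and 0.005 at days 8, 9 and 10, 2.09 and 2.22 at day 12 and 7.87 in iPSCs. Both genes were picked after their values were seen.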
